A study of Homo sapiens with 6 samples.

Results

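Iron uptake, storage and export were followed through 10 genes in FaDu, a long-established squamous cancer line of the hypopharynx, with a knockdown of NSUN2. The NSUN2 enzyme methylates cytosines in tRNAs and in some mRNAs, giving 5-methylcytosine. The 10 genes were taken as a list of known iron-handling genes from a table of 58825 genes, and each matched 1 Ensembl identifier. The list was selected on the log2 fold changes of this same comparison as well as on function, since it was drawn up with earlier results known, CP among them as a very large increase. Their values in the comparison are therefore given as a description, without p-values. RNA was sequenced from 3 libraries of FaDu cells without a hairpin (labelled FaDu) and 3 libraries of FaDu cells with the NSUN2 hairpin (labelled shNSUN2). A control hairpin is not among the libraries analysed here, and what NSUN2 loss does and what hairpin delivery does cannot be told apart. The labels give neither the hairpin's sequence, the time after its delivery, nor the number of clones. They also do not say whether replicates were separate cultures, so the spread and every p-value refer to these libraries and may be technical.

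Cells take up iron mainly as transferrin bound to the transferrin receptor (TFRC). Inside the endosome the iron is reduced by STEAP3 and carried into the cytosol by SLC11A2 (DMT1). Surplus iron is stored in a shell built of ferritin heavy chain (FTH1), which oxidises the iron, and ferritin light chain (FTL). It can leave the cell through ferroportin (SLC40A1), helped by a ferroxidase such as ceruloplasmin (CP), and HMOX1 releases iron from heme. IREB2 (IRP2) and ACO1 (IRP1, which is also the cytosolic aconitase) bind hairpins called iron-responsive elements (IREs) when iron is low. Binding in a 5′ UTR blocks translation, and binding in a 3′ UTR protects the mRNA from decay.

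The IREs are shown because they divide the measured mRNAs into those controlled in translation and those controlled in stability. A search of the protein-coding transcripts of GENCODE 29, sense strand only, looked for CNNNNNCAGTGN with a loop base other than G in its last place, a fully paired stem of 5 bases and at least 3 of 5 pairs in the stem under it. It matched 58 of 19684 genes (0.295%), among them 4 of the 10 iron genes. Capitals mark the bulged C and the loop of 6 bases, 5′ to 3′ in the letters of the sense strand (GRCh38).
FTH1 5′ UTR, chr11:61967575-61967601, minus strand: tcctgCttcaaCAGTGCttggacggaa
FTL 5′ UTR, chr19:48965336-48965362, plus strand: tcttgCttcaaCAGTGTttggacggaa
SLC40A1 5′ UTR, chr2:189580662-189580688, minus strand: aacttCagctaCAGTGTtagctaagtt
TFRC 3′ UTR, chr3:196050980-196051006, minus strand: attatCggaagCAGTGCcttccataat
TFRC 3′ UTR, chr3:196050576-196050602, minus strand: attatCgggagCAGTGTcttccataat
TFRC 3′ UTR, chr3:196050511-196050537, minus strand: tgtatCggagaCAGTGAtctccatatg
TFRC 3′ UTR, chr3:196050464-196050490, minus strand: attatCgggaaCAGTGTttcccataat
The TFRC mRNA held 4 matches, all in the 3′ UTR, whereas FTH1, FTL and SLC40A1 each held 1 in the 5′ UTR. The other 6 iron genes had no match, which says only that these letters with this pairing are not in their transcripts.

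Libraries held 53612358 to 72788971 estimated counts. NSUN2 itself, the target of the hairpin, had 169, 173 and 156 CPM (counts per 1000000 counts of a library, scaled by edgeR's TMM factors) in FaDu and 50.4, 34.7 and 39.6 CPM in shNSUN2. The log2 fold change of NSUN2 was -1.997 (SE 0.16, edgeR quasi-likelihood adjusted p = 0.000526). By exact permutation of the 6 libraries, two-sided, p was 0.1, and this design can give none smaller. FaDu is known to lack SMAD4. This gene had 0, 4 and 0 counts in FaDu and 21, 6 and 12 counts in shNSUN2, too few to be tested. All shNSUN2 libraries were above FaDu in SMAD4, and the source of these counts was not tested. All 10 squamous epithelial markers were tested, with a summed level of 5059 to 5160 CPM in FaDu and 2817 to 3222 CPM in shNSUN2. Replicate 3 of shNSUN2 stood apart by base composition. Its log2 difference from replicates 1 and 2 had a Spearman rho with GC content of 0.430 and 0.367 across 19033 genes, which are not independent replicates. Values without that library, or corrected for GC content and length, are given below where they move a result.

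Of the 10 iron genes, 9 had enough counts to be tested, and 4 of the 9 were called: CP and IREB2 higher, FTH1 and HMOX1 lower in shNSUN2. A call means a Benjamini-Hochberg adjusted p under 0.05 over all 19081 genes tested. Among all of these genes 18.5% were called, 8.54% higher and 9.97% lower. In 8 of the 10 genes the libraries of the 2 groups did not overlap, and among all tested genes 42.3% did not. As the genes were listed with this comparison known, nothing is read from these shares.

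**Figure D1:**
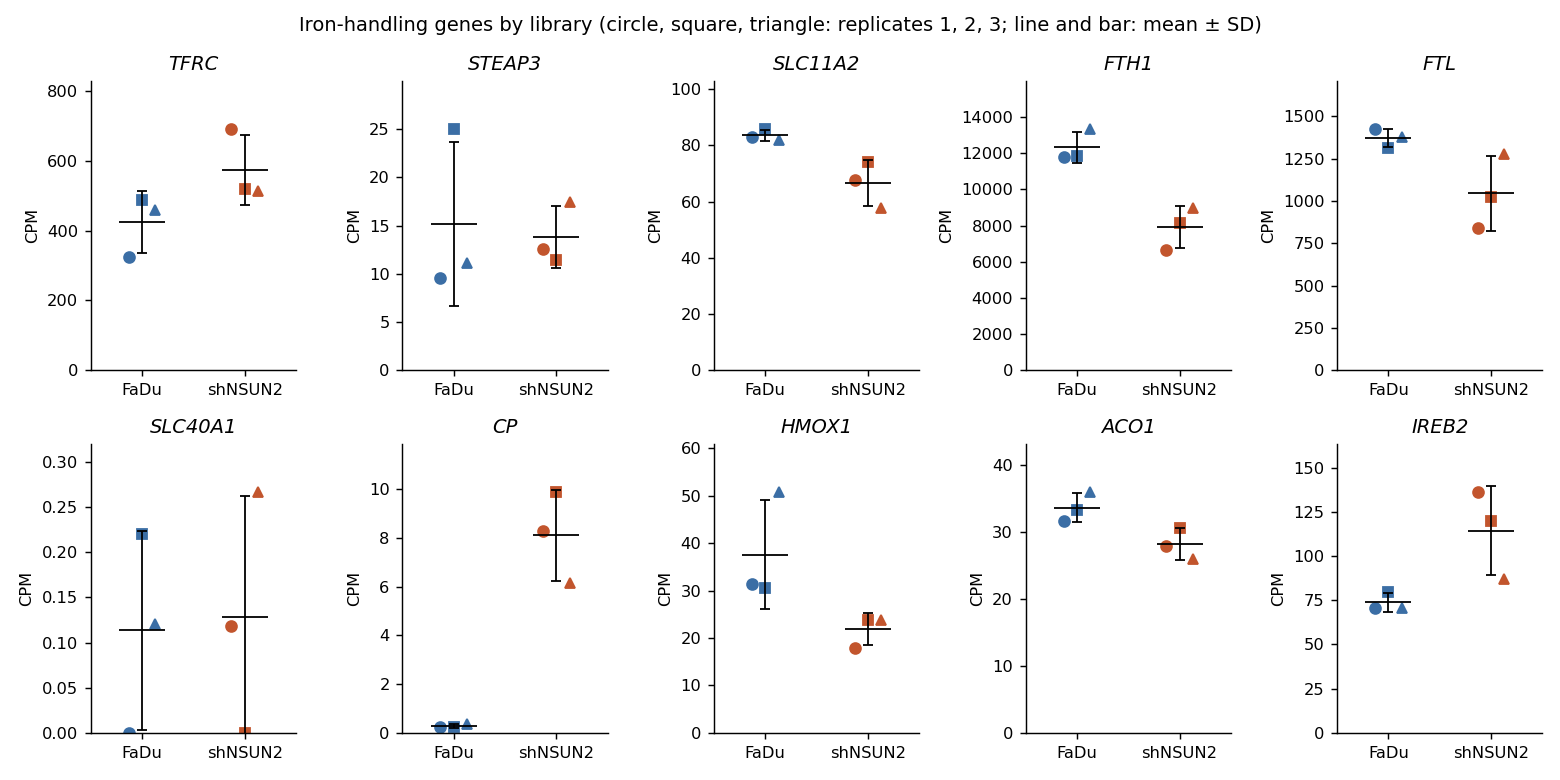
CPM of the 10 iron genes in each library, FaDu in blue and shNSUN2 in orange, with each panel's vertical axis starting at 0; lines and bars are the mean ± SD of 3 libraries. FTH1 lay at 11792 to 13322 CPM in FaDu and 6671 to 8957 CPM in shNSUN2, CP went from under 0.4 to between 6.13 and 9.88 CPM, and STEAP3 and SLC40A1 overlapped between groups.

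Ferritin mRNA was by far the most abundant of the set. Per kilobase of merged exons, FTH1 had a level of 6072 ± 426 CPM and FTL of 1562 ± 63.3 CPM in FaDu (SD, n = 3). TFRC followed at 53.8 ± 11.2, HMOX1 at 15.6 ± 4.77, SLC11A2 at 8.24 ± 0.196, IREB2 at 6.83 ± 0.484, ACO1 at 4.45 ± 0.292 and STEAP3 at 3.33 ± 1.87 CPM per kilobase. CP and SLC40A1 came last, at 0.0387 ± 0.00952 and 0.0262 ± 0.0255 CPM per kilobase. Neighbours in this order did not overlap in their libraries except ACO1 with STEAP3 and CP with SLC40A1. In shNSUN2 the order differed in that IREB2 (10.6 ± 2.32 CPM per kilobase) moved ahead of SLC11A2 (6.55 ± 0.805) and HMOX1 (9.08 ± 1.41). The shNSUN2 libraries of IREB2 overlapped those of HMOX1. They did not overlap those of SLC11A2, with IREB2 at 8.05 to 12.6 and SLC11A2 at 5.69 to 7.29 CPM per kilobase. CP was still next to last, at 1.11 ± 0.258 CPM per kilobase, but no longer overlapped SLC40A1.

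The transferrin receptor TFRC, which brings iron-loaded transferrin into the cell, lies on chromosome 3 from 196027183 to 196082189 (GENCODE 29 on GRCh38, as all positions here). It had 324, 489 and 461 CPM in FaDu and 691, 521 and 514 CPM in shNSUN2. The shNSUN2 libraries were all above the FaDu libraries, though the gap between the highest FaDu and the lowest shNSUN2 library was small beside the spread. The log2 fold change was 0.44 (SE 0.19), and TFRC was not called. With the GC and length correction it was 0.57 and called, and without FaDu replicate 1 or shNSUN2 replicate 1 it was 0.28 and 0.29 and not called.

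STEAP3, the ferrireductase of the transferrin endosome, had 9.52, 25.0 and 11.1 CPM in FaDu and 12.6, 11.4 and 17.4 CPM in shNSUN2. FaDu replicate 2 had the highest level of all 6 libraries, and the groups overlapped. The log2 fold change was -0.14 (SE 0.37) and turned to 0.42 without FaDu replicate 2, so no direction can be given. The antisense gene STEAP3-AS1 shares 500 exonic bases with STEAP3 and had a mean of 0.502 CPM in FaDu and 0.404 CPM in shNSUN2. SLC11A2, the divalent metal transporter that moves iron out of the endosome, had 83.1, 85.7 and 81.8 CPM in FaDu and 67.7, 73.9 and 57.7 CPM in shNSUN2. All shNSUN2 libraries were below FaDu, at a log2 fold change of -0.33 (SE 0.13) that was not called.

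The ferritin heavy chain gene FTH1 lies on chromosome 11 from 61959718 to 61967660. It had 11792, 11863 and 13322 CPM in FaDu and 6671, 8143 and 8957 CPM in shNSUN2. Every shNSUN2 library was below every FaDu library, and the shNSUN2 mean was 64.3% of the FaDu mean (12326 ± 864 against 7924 ± 1159 CPM, SD, n = 3). The log2 fold change was -0.64 (SE 0.13), called lower. In bulk RNA, fewer cells of a type and less RNA per cell cannot be told apart. Without FaDu replicate 2 or 3 the log2 fold changes were -0.66 and -0.58 and not called.

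The light chain gene FTL had 1423, 1313 and 1378 CPM in FaDu and 838, 1022 and 1278 CPM in shNSUN2. The shNSUN2 libraries were all lower, but replicate 3 came close to the FaDu libraries. The log2 fold change was -0.39 (SE 0.16), not called. It was -0.56 and called without shNSUN2 replicate 3, and -0.53 and called with the GC and length correction. FTL has 56.3% GC over its transcripts and 878 exonic bases, which makes it the shortest of the 10 genes. Both chains together took 1.32, 1.34 and 1.53% of all counts in FaDu and 0.754, 0.929 and 0.949% in shNSUN2.

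FTH1 has many near-identical pseudogenes, so its count is uncertain. The 25 annotated FTH1 pseudogenes summed to 596 to 731 CPM in FaDu and 287 to 554 CPM in shNSUN2. That was 4.30 to 6.20% of the FTH1 level in the same library, and the shares of the groups overlapped. The highest of them, FTH1P11 and FTH1P7, had log2 fold changes of -0.53 (SE 0.22) and -0.68 (SE 0.23), neither called. The next in level, FTH1P8 and FTH1P2, were called lower, at -0.62 (SE 0.16, edgeR adjusted p = 0.0339) and -0.997 (SE 0.19, edgeR adjusted p = 0.0117). BEST1, an ion channel gene on the opposite strand that shares 1267 exonic bases with FTH1, had 52.9, 24.8 and 32.3 CPM in FaDu and 21.2, 18.0 and 11.0 CPM in shNSUN2. Those levels are small beside FTH1, and without strand information reads of the shared stretch cannot be assigned to either gene. The 16 FTL pseudogenes summed to 1.05 to 1.67 CPM in all libraries, at most 0.161% of FTL.

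Ferroportin (SLC40A1), the only known exporter of ferrous iron from mammalian cells, was close to undetected. It had 0, 12 and 9 counts in FaDu and 8, 0 and 18 counts in shNSUN2, too few to be tested, and no difference was detectable at this depth. In these counts 1 sequenced fragment is often worth 4 units, so they stand for few fragments.

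Ceruloplasmin (CP), a copper-carrying ferroxidase best known as a plasma protein made by the liver, lies on chromosome 3 from 149162410 to 149222055. It had 14, 14 and 27 counts (0.229, 0.257 and 0.361 CPM) in FaDu and 560, 587 and 414 counts (8.28, 9.88 and 6.13 CPM) in shNSUN2. All 3 shNSUN2 libraries were far above FaDu. The mean went from 0.282 ± 0.0694 to 8.10 ± 1.88 CPM (SD, n = 3), and the log2 fold change was 4.82 (SE 0.30). This fold rests on few fragments in FaDu. It was called in each of the 14 other settings tried, at 4.64 to 5.05.

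HPS3, a gene of lysosome-related organelles on the opposite strand, overlaps CP by 1418 exonic bases. Its levels were 41.2, 40.2 and 50.5 CPM in FaDu and 43.3, 36.2 and 24.9 CPM in shNSUN2, not called (log2 fold change -0.34, SE 0.21). The libraries of the groups overlapped in HPS3, and without strand information reads of the shared stretch cannot be assigned to either gene. The other ferroxidases HEPH and HEPHL1 were listed at 0 in all 6 libraries. The 3 tested genes whose log2 levels over the 6 libraries lay closest to CP were KLK2, TGFB2 and LGALS9. Their root mean square differences from CP were 0.412, 0.426 and 0.451 on the log2(CPM + 0.5) scale. KLK2, which is also in the list of prostate markers below, had 4 counts in each FaDu library and 542 to 762 in shNSUN2. TGFB2 had 15 to 57 and 353 to 490, and LGALS9 had 24 to 41 and 311 to 436.

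Markers of other cell types were read beside CP. Of 11 hepatocyte markers, 6 were at 0 in all libraries, and albumin (ALB) had 0 to 0.0739 CPM. The summed level of that list overlapped between groups, at 9.66 to 23.3 CPM in FaDu and 9.50 to 11.5 CPM in shNSUN2, nearly all of it SERPINA1. None of the 8 leukocyte or 8 erythroid markers had enough counts to be tested, and both sums overlapped, at no more than 0.355 CPM.

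Other lists held markers that rose with CP. All 4 tested plasma cell markers of 8 rose, beside 8.54% called higher among all genes. The list summed to 0, 0 and 0.267 CPM in FaDu and 6.77, 2.10 and 2.58 CPM in shNSUN2. A marker at or near 0 in FaDu could pass the count filter only through the shNSUN2 libraries. Its direction was therefore fixed beforehand, and nothing is read from such a count. Of its immunoglobulin genes, IGKC was at 0 in FaDu and at 2.87, 0.505 and 0.844 CPM in shNSUN2. All 9 prostate markers were tested, of which 6 rose and 1 fell, beside 8.54% called higher and 9.97% lower among all genes. In FaDu 3 of the 9 were at 0. The prostate list summed to 29.3, 32.2 and 29.3 CPM in FaDu and 68.8, 62.0 and 53.0 CPM in shNSUN2. KLK3, the prostate-specific antigen, went from 0, 0 and 0.160 CPM in FaDu to 14.0, 16.8 and 10.2 CPM in shNSUN2. KLK2 was at 11.3, 10.4 and 8.03 CPM in shNSUN2. The 8 endothelial markers summed to 4.64 to 6.45 CPM in FaDu and 32.8, 46.0 and 55.9 CPM in shNSUN2, nearly all of it CDH5, the 1 called of 3 tested, while PECAM1 stayed at or under 0.267 CPM. Macrophage, smooth muscle and fibroblast sums overlapped between groups. Called higher were 1 of 4 tested macrophage, 1 of 5 fibroblast and 2 of 6 smooth muscle markers, all at or near 0 in FaDu. The macrophage gene C1QB was at 0 in FaDu and at 0.236, 0.236 and 0.592 CPM in shNSUN2. These were only 16, 14 and 40 counts. CD68, CD14 and CSF1R were not called, at log2 fold changes of -0.02, 0.20 and 0.72. The fibroblast collagen COL1A2 was at 0 in FaDu and at 0.562, 0.286 and 0.311 CPM in shNSUN2. In the smooth muscle list ACTG2 went from 0 to 1.49, 0.320 and 0.355 CPM and DES from at most 0.114 to 2.75, 0.455 and 0.459 CPM, both called higher, while ACTA2 was called lower. These marker genes other than KLK2 were named after their values were seen. The part of such cells or their RNA in the CP level was not tested.

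HMOX1, the inducible heme oxygenase, had 31.4, 30.5 and 50.8 CPM in FaDu and 17.9, 23.9 and 23.7 CPM in shNSUN2. FaDu replicate 3 was the highest library, and all shNSUN2 libraries were below all FaDu libraries. The log2 fold change was -0.78 (SE 0.23), called lower in the full set of libraries only just. Leaving out any single library ended the call, with log2 fold changes of -0.90, -0.91 and -0.50 without FaDu replicate 1, 2 or 3 and -0.65, -0.85 and -0.84 without shNSUN2 replicate 1, 2 or 3.

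The iron regulatory proteins are IREB2 and ACO1. IREB2 on chromosome 15 had 70.7, 79.8 and 70.8 CPM in FaDu and 136, 120 and 87.0 CPM in shNSUN2. All shNSUN2 libraries were higher, replicate 3 by the least, and the log2 fold change was 0.63 (SE 0.17), called higher. IREB2 is long and poor in GC, with 10806 exonic bases and 40.8% GC, and its log2 fold change was 0.80 without shNSUN2 replicate 3 and 0.78 with the GC and length correction, both called. The call was lost without any of the other 5 libraries, at 0.49 to 0.69, and with library totals as the only scaling, at 0.59. ACO1 had 31.6, 33.3 and 36.0 CPM in FaDu and 27.9, 30.7 and 25.9 CPM in shNSUN2. Its shNSUN2 libraries were all slightly lower, at a log2 fold change of -0.26 (SE 0.13) that was not called.

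**Figure D2:**
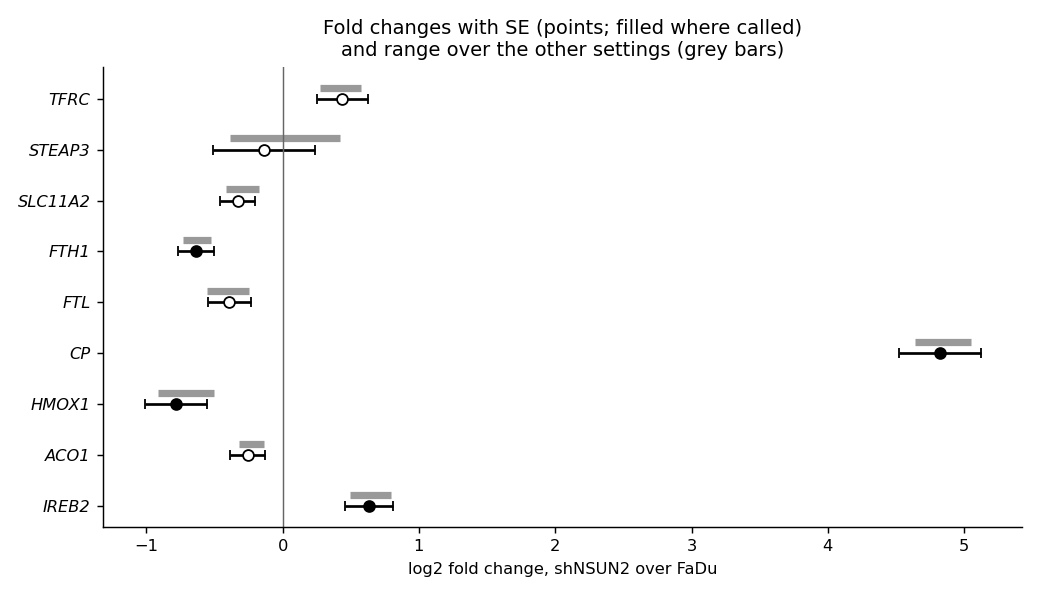
Log2 fold change of the 9 tested iron genes, shNSUN2 over FaDu, with SE; filled points were called, open points were not, and the grey bar above each point is the range over 14 other settings. CP stands at 4.82, the others lie between -0.78 and 0.63, and the bar of STEAP3 alone crosses 0.

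Ratios within a library do not depend on how libraries are scaled. FTH1 over TFRC, storage over uptake, was 36.4, 24.2 and 28.9 in FaDu and 9.65, 15.6 and 17.4 in shNSUN2, a mean of 29.9 ± 6.14 against 14.2 ± 4.07 (SD, n = 3). The groups did not overlap. IREB2 over ACO1 was 2.24, 2.39 and 1.97 in FaDu and 4.89, 3.91 and 3.35 in shNSUN2, also without overlap. Each of these pairs joins a gene higher in every shNSUN2 library with a gene lower in every one. Their ratios therefore had to separate, and the separation adds nothing to the levels given above. FTH1 over FTL was 8.998 ± 0.694 in FaDu and 7.65 ± 0.552 in shNSUN2 in CPM, which is 3.89 and 3.31 per exonic length. FTH1 and FTL, with IRE matches in the 5′ UTR, lay lower in every shNSUN2 library, and FTH1 alone of the pair was called. TFRC, with matches in the 3′ UTR, lay higher and was not called. CDC14A, another listed gene with a 3′ UTR match, had 9.91 ± 0.365 CPM in FaDu and 9.66 ± 1.58 CPM in shNSUN2 with overlapping libraries (log2 fold change -0.04, SE 0.16), and was named after its values were seen. SLC40A1, with a 5′ UTR element, was too low to compare. Iron genes without a match in this search went both ways. CP and IREB2 were higher in every shNSUN2 library, SLC11A2, HMOX1 and ACO1 were lower in every one, and STEAP3 overlapped. A link between IRE position and direction was not tested.

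**Figure D3:**
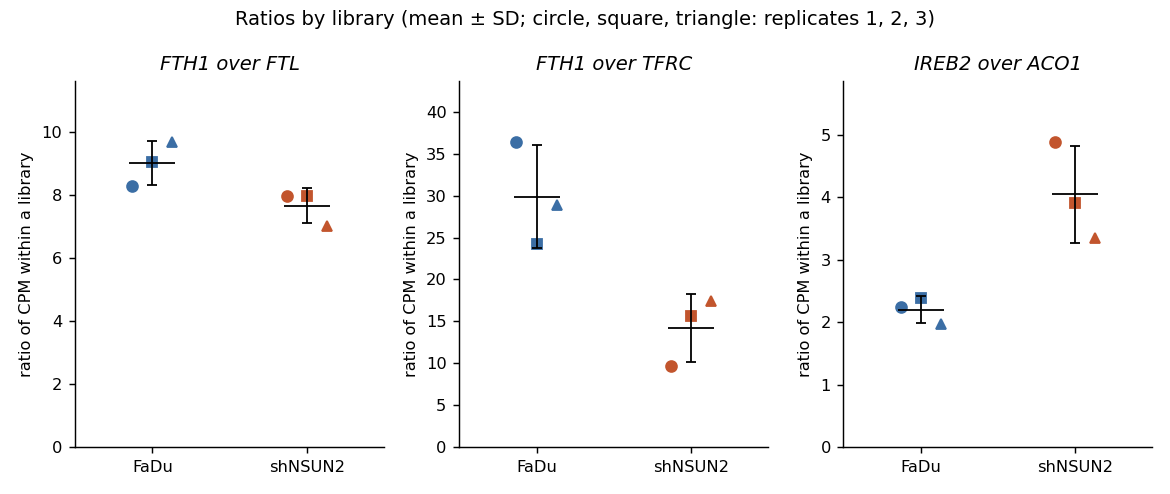
Ratio of CPM of a pair of iron genes within each library, FaDu in blue and shNSUN2 in orange, with the mean ± SD of 3 libraries. FTH1 over TFRC lay at 24.2 to 36.4 in FaDu and 9.65 to 17.4 in shNSUN2, and IREB2 over ACO1 at 1.97 to 2.39 and 3.35 to 4.89. The genes of each of these pairs already lay apart in opposite directions, which fixes the separation.

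For most iron genes the variation between libraries that edgeR estimated lay below the median of all tested genes. No comparison was made with genes of similar level, so this is not read as a trait of iron genes. The biological coefficient of variation estimated by edgeR was 0.145 for FTH1, 0.147 for SLC11A2, 0.150 for ACO1 and 0.162 for FTL, beside a median of 0.230 over all tested genes, and lay below that median in 7 of the 9 tested iron genes. STEAP3 had the highest of the set, 0.336, and CP had 0.266.

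Beyond these 10, 141 genes of iron, heme, iron-sulfur cluster and copper handling were listed by their known roles, with earlier results of these data already known, and 127 were tested. Their counts and shares are therefore a description. Of these 13 rose and 12 fell, which is 19.7% of the tested genes beside 18.5% called among all genes. Their median log2 fold change was 0.05, beside -0.01 over all genes. Counts of calls changed with the libraries used, here as over all genes. Without FaDu replicate 1, 2 or 3 the higher genes numbered 5, 4 and 3 and the lower genes 6, 7 and 7, and without shNSUN2 replicate 3 they numbered 15 and 21. Over all genes, 1629 were called higher and 1903 lower, and without FaDu replicate 1, 2 or 3 these counts were 626, 478 and 493 higher and 970, 878 and 861 lower. With the GC and length correction 23 were higher and 19 lower. Of the 25 called genes, 9 were called in all 14 other settings: STEAP4, LCN2 and VDAC3 higher, and STEAP1, LRP1, ERFE, ACVR1, BLVRA and GLRX5 lower.

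Among 15 tested genes of other uptake routes, 3 rose and 2 fell, beside 8.54% called higher and 9.97% lower among all genes. Of the other STEAP genes, STEAP4 rose from 4.92 ± 0.288 CPM to between 12.6 and 18.8 CPM (1.70 on the log2 scale, SE 0.19, edgeR adjusted p = 0.00157). STEAP1 fell from 6.99 ± 0.954 to 2.47 ± 0.351 CPM (edgeR adjusted p = 0.00316). STEAP2, named after its values were seen, was at -0.71 (SE 0.32) and not called. LRP1, a receptor that takes up heme bound to hemopexin, fell from 160 ± 7.55 to 62.5 ± 14.0 CPM (edgeR adjusted p = 0.00237). FLVCR2, a transporter first described as a heme importer, rose by 1.29 (SE 0.26) on the log2 scale (edgeR adjusted p = 0.0140). Clathrin heavy chain (CLTC) and the adaptor AP2M1, which carry the transferrin receptor inwards, were at log2 fold changes of 0.10 and 0.43 and did not pass.

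Of 9 tested genes of storage and ferritin breakdown 1 rose, beside 8.54% called higher among all genes. It was the iron chaperone PCBP1, which went from 343 ± 2.63 to 467 ± 58.3 CPM (edgeR adjusted p = 0.0363). NCOA4, the receptor that delivers ferritin to autophagy, had 148 ± 7.67 and 149 ± 10.9 CPM, and the chaperone PCBP2 was at a log2 fold change of 0.23 (SE 0.12), neither past the test. None of the 4 tested export genes was called by edgeR or by DESeq2, beside 18.5% called by edgeR among all genes. Of the 4, 3 had an unadjusted edgeR p under 0.05, with APP at -0.01 (SE 0.11) and PROM2 at 0.37 (SE 0.14). None of 7 genes of iron sensing and further IRE mRNAs was called by either tool, beside 18.5% called by edgeR among all genes. Of the 7, 3 had an unadjusted edgeR p under 0.05. In that list SKP1, a part of the ubiquitin ligase that removes IREB2, stood at a log2 fold change of 0.44 (SE 0.15). FBXL5, the iron-sensing subunit of that ligase, was at -0.21 (SE 0.14). FBXL5 was chosen after its values were seen.

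Of 12 tested genes of the hepcidin axis, the signalling that sets systemic iron export, 4 fell, beside 9.97% called lower among all genes. The receptor ACVR1 fell from 23.8 ± 1.42 to 13.9 ± 0.739 CPM (-0.78 on the log2 scale, SE 0.13, edgeR adjusted p = 0.00710). Erythroferrone (ERFE), a secreted hepcidin inhibitor, fell by 1.04 (SE 0.17, edgeR adjusted p = 0.00719), the ligand BMP2 by 0.88 (edgeR adjusted p = 0.0271) and the signal transducer SMAD9 by 1.41 (edgeR adjusted p = 0.0311). Calls of BMP2 and SMAD9 were lost without any 1 of the FaDu libraries or without shNSUN2 replicate 1, at log2 fold changes of -0.93 to -0.69 and -1.48 to -1.32. FURIN and NEO1 had log2 fold changes of -0.13 and -0.42 and did not pass. Hepcidin itself (HAMP) was listed at 0 in all 6 libraries.

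In heme metabolism, the synthesis genes UROD and TMEM14C did not pass, at log2 fold changes of -0.24 and -0.18. Of 5 tested genes of heme breakdown 1 fell, beside 9.97% called lower among all genes. BLVRA, the reductase that turns the biliverdin made by heme oxygenase into bilirubin, went from 43.1 ± 2.61 to 22.3 ± 1.64 CPM (-0.95 on the log2 scale, SE 0.12, edgeR adjusted p = 0.00284). The constitutive heme oxygenase HMOX2 (0.22, SE 0.18) and its electron donor POR (0.14, SE 0.16) did not pass.

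Iron-sulfur cluster genes were mostly not called. Of 24 mitochondrial genes 1 rose and 3 fell, beside 8.54% called higher and 9.97% lower among all genes. GLRX5, a glutaredoxin that hands on newly made clusters, fell from 189 ± 5.11 to 78.4 ± 22.8 CPM (-1.27 on the log2 scale, SE 0.20, edgeR adjusted p = 0.00587). NUBPL, an assembly factor of respiratory complex I, fell by 0.58 (edgeR adjusted p = 0.0135) and the iron importer SLC25A37 (mitoferrin 1) by 0.48 (edgeR adjusted p = 0.0317), while the cochaperone HSCB rose by 0.88 (edgeR adjusted p = 0.0154). The scaffold ISCU and the chaperone HSPA9, at 0.09 and -0.17, did not pass. Of 12 cytosolic genes 2 rose, beside 8.54% called higher among all genes. These were CIAO3, by 0.81 (edgeR adjusted p = 0.0126), and GLRX3, by 0.59 (edgeR adjusted p = 0.0348). CIAO1 and MMS19 stood at 0.41 and 0.39 and did not pass. The median log2 fold change of these 12 was 0.39. All 12 were highest in shNSUN2 replicate 3. Without that library the median was 0.19, and with all libraries and the GC and length correction it was 0.35.

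LCN2, a secreted protein that binds iron-loaded siderophores, rose from 47.5 ± 6.36 to 164 ± 15.3 CPM (1.79 on the log2 scale, SE 0.14, edgeR adjusted p = 0.000526). BDH2, an enzyme assigned to mammalian siderophore synthesis, fell by 0.78 (SE 0.15, edgeR adjusted p = 0.0135). The proposed LCN2 receptor SLC22A17 had 0.275 ± 0.275 and 0.194 ± 0.0851 CPM, and MELTF was at -0.46 (SE 0.16), neither called. Of 15 regulators of ferroptosis, the iron-dependent form of cell death, 3 rose and 1 fell. Among all genes 8.54% were called higher and 9.97% lower. VDAC3 rose from 192 ± 13.0 to 376 ± 36.8 CPM (edgeR adjusted p = 0.00219), TFAP2C by 0.61 (edgeR adjusted p = 0.0122) and CHAC1 by 0.89 (edgeR adjusted p = 0.0215). ACSL4, which loads membranes with polyunsaturated fatty acids, fell by 0.71 (SE 0.18, edgeR adjusted p = 0.0318). The cystine importer SLC7A11 had 341, 344 and 333 CPM in FaDu and 157, 242 and 81.8 CPM in shNSUN2, lower in all 3 libraries but not called, and SAT1 stood at -0.44 (SE 0.17). Of 9 copper genes 1 rose, beside 8.54% called higher among all genes. It was the importer SLC31A1, which went from 49.2 ± 1.94 to 65.2 ± 1.09 CPM (edgeR adjusted p = 0.0372). The copper chaperones ATOX1 and SCO1 stood at 0.53 and 0.38 and did not pass.

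**Figure D4:**
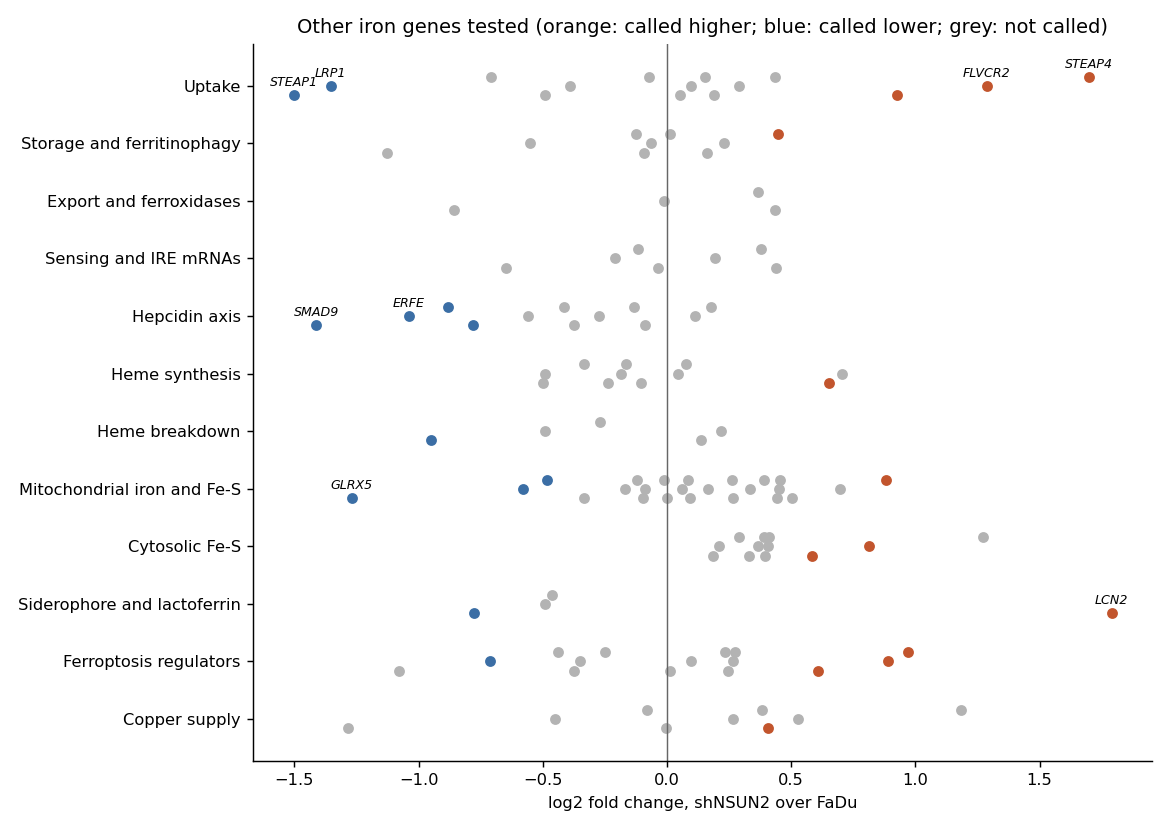
Log2 fold change, shNSUN2 over FaDu, of the tested genes of 12 lists of iron, heme, iron-sulfur and copper genes, 1 point a gene, with names where a called change was at least 1 in size. Orange points rose and blue points fell; LCN2 (1.79) and STEAP4 (1.70) lie farthest to the right and STEAP1 (-1.50) farthest to the left.

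CP is also known as an acute-phase protein, so 17 other acute-phase genes were read with it. Only 7 had enough counts to be tested, and 6 of the 7 rose, beside 8.54% called higher among all genes. Their median log2 fold change was 1.07. LCN2, given above, is among them. This list too was drawn up with earlier results of these data known, so its counts are a description. The serum amyloid genes SAA1 and SAA2, which are close copies with uncertain counts, rose by 1.78 (SE 0.23, edgeR adjusted p = 0.00290) and 2.36 (SE 0.28, edgeR adjusted p = 0.00190) on the log2 scale. The protease inhibitor SERPINA3 rose by 1.07 (edgeR adjusted p = 0.00921), and the complement genes C3 and CFB by 0.59 (edgeR adjusted p = 0.0197) and 0.54 (edgeR adjusted p = 0.0295). SERPINA1 was at -0.66 (SE 0.30) and did not pass. HP, CRP, ORM1 and FGA, liver products of the same response, were at 0 in all 6 libraries. Plasma cell and prostate markers rose in the same comparison, as given beside CP, and their part in these changes was not tested.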

How the data were processed

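The authors deposited 1 table of estimated counts per Ensembl gene, with 6 columns that each matched a sample by its title. HISAT2 2.0, StringTie 1.3.0 and Bowtie 0.12.2 appear in the submitters' processing notes without roles, as does mm8, a mouse build, although the identifiers are human. Which human build and annotation were counted, and whether strand was kept, is not given in the sources used here. All deposited counts were whole numbers and no rounding was needed. The value 4 was 3.25 to 3.81 times as frequent as the mean of 3 and 5, so 1 fragment is often worth 4 units and no counting interval is given.

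Symbols came from a gene name table and GENCODE 29 (58817 of 58825 identifiers). Positions, lengths, GC content and transcripts are from GENCODE 29. The test was edgeR 4.0.16 under R 4.3.3 (quasi-likelihood F-test, robust, TMM, filterByExpr with minimum count 10 and minimum total 15, group alone), two-sided, Benjamini-Hochberg over 19081 genes, threshold 0.05. SE is the log2 fold change divided by the square root of F. CPM use TMM-adjusted library totals. The procedure was tested on simulated data. Alternatives were RLE factors, library totals, DESeq2 1.42.0, no filter, counts divided by 4, a replicate block, per-library smooth offsets for GC content and length, and leaving out each library.

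The 10 iron genes and all lists were chosen with earlier results of these data known. Named from each list of other iron genes were up to 4 called genes with the smallest adjusted p and up to 2 uncalled genes of highest mean CPM. Some results that this rule would name are not reported here. For CP the 3 genes with the nearest log2 profile were named.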

Additional observations from a re-analysis of the deposited data

How the results depend on the processing

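Directions of the 9 tested iron genes held under all 14 alternatives, except STEAP3, whose log2 fold change ran from -0.38 to 0.42 over the fits without 1 library, and was above 0 without FaDu replicate 2. Called iron genes numbered 2 higher and 2 lower. Leaving out 1 library gave 1 to 2 higher and 0 to 2 lower, with 0 lower without FaDu replicate 2 or 3. In those 2 fits the log2 fold changes were -0.66 and -0.58 for FTH1 and -0.91 and -0.50 for HMOX1. Over the 6 fits without 1 library, FTH1 was called in 4, HMOX1 in 0 and IREB2 in 1, while calls over all genes also fell in most of them. With library totals alone 1 was called higher. The GC and length correction gave 23 other iron genes called higher and 19 lower, against 13 and 12. Leaving out 1 library gave 3 to 15 higher and 6 to 21 lower. Over all genes, 1629 were called higher and 1903 lower, and leaving out 1 library gave 478 to 2090 and 861 to 2181. The GC and length correction called 2873 genes higher and 2234 lower, which turned the balance towards increases. DESeq2 called 2062 higher and 2205 lower.

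Same-numbered samples did not deviate together (Pearson's r of deviations from group means -0.0364, 0.0235 and 0.00744 for pairs 1, 2 and 3, across genes). With 3 libraries a group this cannot show that they were unpaired, and the labels do not say what a pair shares. With the replicate block, 969 genes were called higher over all genes and 1401 lower, and 1 iron gene was higher, CP, as IREB2 was no longer called. SMAD9 was no longer called with the block either (log2 fold change -1.51, edgeR adjusted p = 0.0506). Depth limited SLC40A1, which could not be tested, and leaves the FaDu level of CP resting on few fragments.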
